A study of Schizosaccharomyces pombe with 6 samples.

Results

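The RNA of wild-type fission yeast (Schizosaccharomyces pombe) in log phase is described here from 3 sequencing libraries of the strain JS 77, out of 6 libraries in the series. The members were every wild-type library and, within them, each gene with at least 10 counts in all 3, which left 5957 of 6986 genes. The genotype label of the strain is WT, with no mating type or further allele named. Cultures were in log phase at 30 ºC in YES medium (yeast extract with supplements), RNA was purified with hot acid phenol, and polyadenylated RNA was made into stranded Illumina libraries read from both ends. The other 3 libraries, of an h- strain with duf89delta::hygR, were not used. The wild-type labels number the replicates without saying whether they were separate cultures, so the spread between libraries may be technical, and with a single group no test between conditions was possible.

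A yeast cell that grows and divides spends much of its messenger RNA on making ribosomes, on the translation machinery and on the enzymes that turn sugar into energy and carbon. In glucose, fission yeast ferments to ethanol while it also respires, and it enters mating and meiosis only when starved, chiefly of nitrogen. Each messenger RNA carries a poly(A) tail, whereas ribosomal RNA, transfer RNA and most small nuclear and nucleolar RNAs do not, so a library of polyadenylated RNA holds little of them.

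The libraries held 18244492, 20166818 and 19363645 counts for replicates 1, 2 and 3. The levels below are CPM (the count of a gene divided by the library total and multiplied by 1000000). CPM compares a gene between libraries. Between genes, levels are compared as length-corrected CPM, which is CPM per base of the annotated RefSeq transcript, rescaled to sum to 1000000. Values are means ± SD over the 3 libraries, and the coefficient of variation (CV) is the SD divided by the mean. The 5957 measured genes held 99.98% of all counts. Their mean level ran from 0.538 to 10333 CPM, with a median of 53.4 CPM, and the middle of the distribution lay between 16.5 and 141 CPM (25th and 75th percentiles).

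The label was set beside genes known to mark growth, starvation, mating and meiosis. Among genes of growth, 15 of 18 measured glycolysis and fermentation genes, 8 of 8 translation elongation genes and 6 of 6 cytoskeleton genes were above the median of the measured genes. The meiosis list stood at the other end, with 12 of 15 genes measured at a median of 2.01 CPM, and 1 of the 12 was above the overall median. In bulk RNA, few cells with a transcript and a low level in every cell cannot be told apart. That gene was mei2, which encodes the RNA-binding protein that starts meiosis and is held inactive during growth, at 93.8 ± 4.59 CPM (SD, n = 3). The meiotic cohesin gene rec8 had 7, 4 and 1 counts in replicates 1 to 3, and the meiotic transcription factor gene mei4 had 53, 50 and 56 counts. Meiotic transcripts are known in fission yeast to be destroyed during growth, so that low counts do not measure transcription alone. By CPM, starvation and stress genes were not uniformly low against the overall median of 53.4 CPM. Above it were 6 of 10 measured genes of the nitrogen starvation list (median 81.2 CPM). So were 10 of 14 of the stress and stationary phase list (median 184 CPM), where hxk2 is also on the glycolysis list. Per length the nitrogen list had a median of 33.5, below the 38.9 of all measured genes, and the stress list 143. Measured protein-coding genes alone had medians of 74.8 CPM and 52.9 length-corrected CPM.

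One gene went against a plain reading of the WT label. The gene ura4, which encodes orotidine 5'-phosphate decarboxylase of uracil synthesis and is a common selectable marker, had 0 counts in each of the 3 libraries. None of its sequence was repeated in the genome (0% of 50-base windows), and a count of 0 allows up to 3 counts, or 0.0519 CPM over the 3 libraries together. Other genes used as auxotrophic markers were measured. The leucine gene leu1 was at 548 ± 14.2 CPM, the adenine gene ade6 at 307 ± 9.33 CPM, the lysine gene lys1 at 681 ± 8.80 CPM and the histidine gene his3 at 19.9 ± 0.602 CPM. Counts per gene do not show point mutations in these genes, and the labels used here give no allele of ura4.

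By CPM, which is not corrected for transcript length, the highest messenger RNAs came from sugar breakdown, the cell surface, protein folding and the ribosome. The highest gene in each library was fba1, which encodes the aldolase that splits fructose bisphosphate in glycolysis, with 10076, 10607 and 10316 CPM in replicates 1, 2 and 3. The second was SPCC553.10, whose product is a cell surface protein of the Kre9/Knh1 family, with 9559, 10415 and 9941 CPM. These 2 genes stood apart from the rest in all 3 libraries. Next were ssa2, a heat shock protein of the Hsp70 kind, at 5956 ± 327 CPM, and hsp90, its partner chaperone, at 5914 ± 275 CPM. Pyruvate kinase, encoded by pyk1, followed at 5795 ± 100 CPM. The spreads of ssa2, hsp90 and pyk1 overlap, so their order is not resolved by these libraries.

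**Figure D1:**
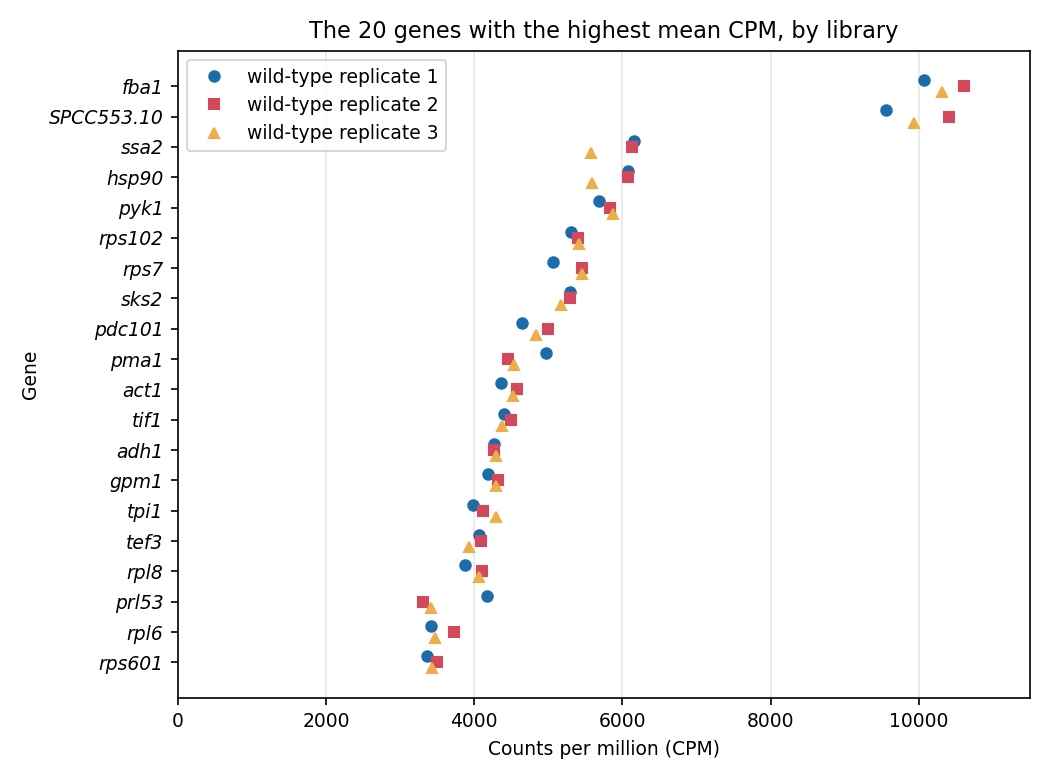
CPM of the 20 genes with the highest mean CPM (rows, highest at the top), 1 symbol per wild-type library. fba1 and SPCC553.10 lie near 10000 CPM in all 3 libraries, apart from the other 18 genes, and prl53 is highest in replicate 1.

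Also in the top 20 were 2 small subunit ribosomal protein genes at similar levels, rps102 at 5377 ± 59.4 CPM and rps7 at 5328 ± 225 CPM, and the ribosome-associated chaperone gene sks2 at 5250 ± 72.5 CPM. The fermentation genes pdc101 (pyruvate decarboxylase) and adh1 (alcohol dehydrogenase) were at 4823 ± 177 CPM and 4274 ± 13.9 CPM. The proton pump gene pma1 had 4973, 4462 and 4536 CPM in replicates 1, 2 and 3, and was highest in replicate 1. Actin (act1) was at 4490 ± 117 CPM, and the translation factor genes tif1 and tef3 were at 4425 ± 69.1 and 4029 ± 86.0 CPM. In all, 6 of the top 20 genes encoded glycolysis or fermentation enzymes, 5 ribosomal proteins, 3 chaperones and 2 translation factors.

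A single non-coding RNA was in that group. The gene prl53, annotated as a polyadenylated non-coding RNA, was at rank 18 with 4172, 3307 and 3422 CPM in replicates 1, 2 and 3. It was higher in replicate 1 than in the other 2 libraries, and its CV of 12.9% compares with a median of 2.59% for the 400 measured genes with at least 10000 mean counts. Outside the ribosomal RNA genes, the next non-coding RNA by CPM was SPNCRNA.1626, an antisense RNA, at 321 ± 26.5 CPM.

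Per transcript length the order changed in favour of short messenger RNAs. Of the 20 highest genes by CPM, 8 were also among the 20 highest by length-corrected CPM, and 63 of the 100 highest were shared. Ribosomal protein genes made up 15 of the top 20 and 75 of the top 100 by length-corrected CPM, against 41 of the top 100 by CPM. fba1 was first on both scales, at 10540 ± 241 length-corrected CPM, followed by rps7 at 8877 ± 323 and rps102 at 7641 ± 37.5. The next were the glycolytic mutase gene gpm1 at 7040 ± 87.0 length-corrected CPM and SPCC553.10 at 6968 ± 278. The SDs of gpm1 and SPCC553.10 overlap. Long genes stood lower: pma1 was at place 163 and tef3 at place 136 on this scale, against places 10 and 16 by CPM. The chaperone genes ssa2, hsp90 and sks2 were at places 40, 57 and 50, against places 3, 4 and 8 by CPM. The members of the top 20 outside glycolysis and the ribosome were SPCC553.10 and tma19, the homolog of the translationally controlled tumor protein, at 5013 ± 217 length-corrected CPM.

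Expression was concentrated in few genes, and to the same degree in each library. The 10 highest genes held 6.28%, 6.48% and 6.27% of the counts of replicates 1, 2 and 3, and the 100 highest held 27.1%, 27.7% and 27.3%. Ranked on the mean CPM, 349 genes, which is 5.86% of the measured genes, held 50% of all counts. By length-corrected CPM, 194 genes held 50% of the total. At the other end, 105 measured genes were below 1 CPM.

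Gene classes were assigned from the identifier, common name and product text of the authors' comparison table. Each gene was placed in a single class by that text, so a class can hold genes of other functions and lack some of its own. Cytosolic ribosomal proteins were the largest defined class of function, with 17.1%, 17.6% and 17.6% of counts in replicates 1, 2 and 3 from 142 genes. Per transcript length their share was 34.3%. The broad remainder of enzymes (946 genes) held 15.6% ± 0.0523 of counts, and proteins outside any class (1157 genes) held 12.9% ± 0.0521. That enzyme class was not only metabolic and also held the kinase gene plo1, the phosphatase gene cdc25 and the GTPase activator gene gyp7. Next came glycolysis and fermentation enzymes, where 19 genes held 4.76% ± 0.0923, and amino acid synthesis enzymes, where 74 genes held 4.28% ± 0.0383. Cell wall and surface proteins held 3.84% ± 0.0315, and translation factors held 3.75% ± 0.0397. Chaperones held 3.51% ± 0.0783 and membrane transporters 3.46% ± 0.0683.

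**Figure D2:**
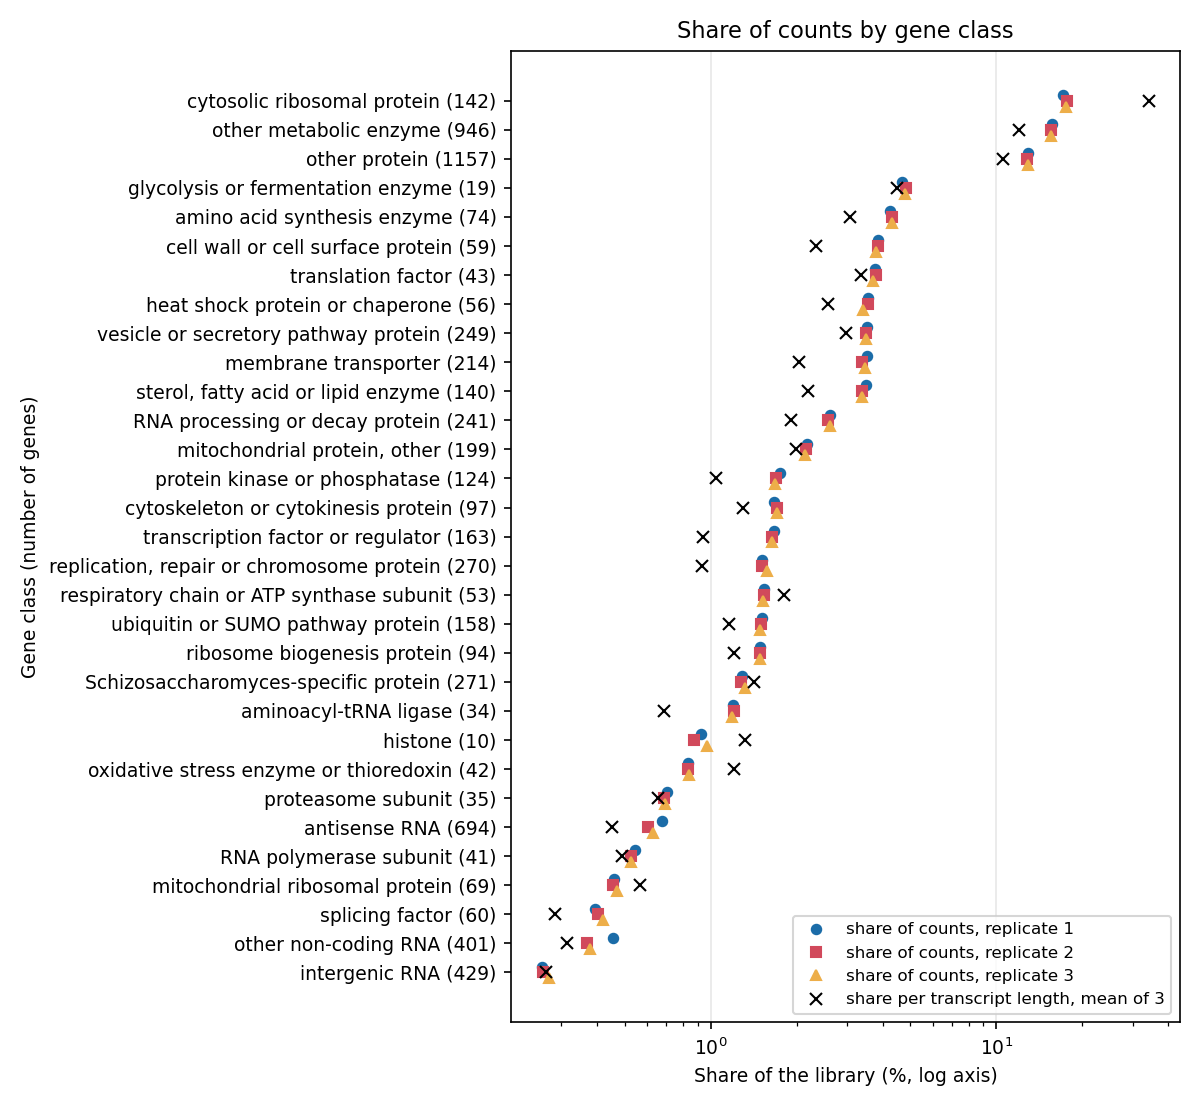
Share of each library's counts on a log axis for the gene classes with the largest shares (rows, with the number of genes in the class, down to intergenic RNA), with 1 symbol per wild-type library and a cross for the share per transcript length. Ribosomal proteins take 17.4% of counts on average and 34.3% per transcript length, and the 3 libraries lie close together in nearly all rows.

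The non-coding classes together were a small part of the libraries. Antisense RNAs (694 genes, 578 measured) held 0.635% ± 0.0370 of counts, other non-coding RNAs (401 genes, 59 measured) held 0.401% ± 0.0466, most of it from prl53, and intergenic RNAs (429 genes, 330 measured) held 0.262% ± 0.00875. Nuclear ribosomal RNA genes held 0.0527% ± 0.00545, mitochondrially encoded RNAs 0.0117% ± 0.00258 and small nuclear or nucleolar RNAs 0.00941% ± 0.000203. None of the 164 transfer RNA genes was measured. The libraries were selected for polyadenylated RNA, so these shares are not the amounts of these RNAs in the cell.

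Most ribosomal proteins are present once in a ribosome, and in fission yeast many of these proteins are encoded by several genes. All 142 cytosolic ribosomal protein genes were measured, at a median of 1030 CPM and of 2235 length-corrected CPM, against 53.4 CPM and 38.9 length-corrected CPM over all measured genes. Their length-corrected levels lay mostly between 1373 and 3275 (25th and 75th percentiles), but the highest, rps7, was 145 times the lowest, rpl1603. The gene at the median by CPM was rpl1902, a large subunit protein gene, at 1032 ± 8.84 CPM. Of these genes, 55 named as 40S proteins had a median of 2436 length-corrected CPM, and 82 named as 60S proteins had a median of 2022.

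Copies of one ribosomal protein were seldom equal. Of 52 families with at least 2 measured copies, the highest copy exceeded the lowest by a median of 1.98 times per length. The ratio was above 2 in 25 families and below 1.2 in 8 families. In 51 of 52 families the same copy was higher in all 3 libraries. Those ratios compare different transcripts, so errors in annotated length enter them.

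The most unequal family was rpl16, where rpl1602 was at 1975 ± 115 length-corrected CPM and rpl1603 at 61.1 ± 3.01. Its ratio was 32.3, 34.8 and 30.0 in replicates 1, 2 and 3. The transcript of rpl1603 is annotated at 2640 bases and that of rpl1602 at 743, and by CPM the copies were at 124 and 1125. The second was rpl34, with rpl3401 at 3372 ± 103 and rpl3402 at 336 ± 14.2 length-corrected CPM, a ratio between 9.36 and 10.6 in the 3 libraries. At the other extreme, rpl502 and rpl501 were at 3318 ± 58.3 and 3305 ± 30.6 length-corrected CPM, and their order differed between libraries, with ratios of 0.992, 1.00 and 1.02. The copies rps601 and rps602 were at 3524 ± 56.7 and 3392 ± 14.2 length-corrected CPM. Neither copy of these 4 families had over 10% repeated sequence. In 3 families (rpl12, rpl3 and rpl10) a copy had more than 10% of its 50-base windows elsewhere in the genome, and their ratios depend on how reads with several matches were counted, which no source used here states.

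**Figure D3:**
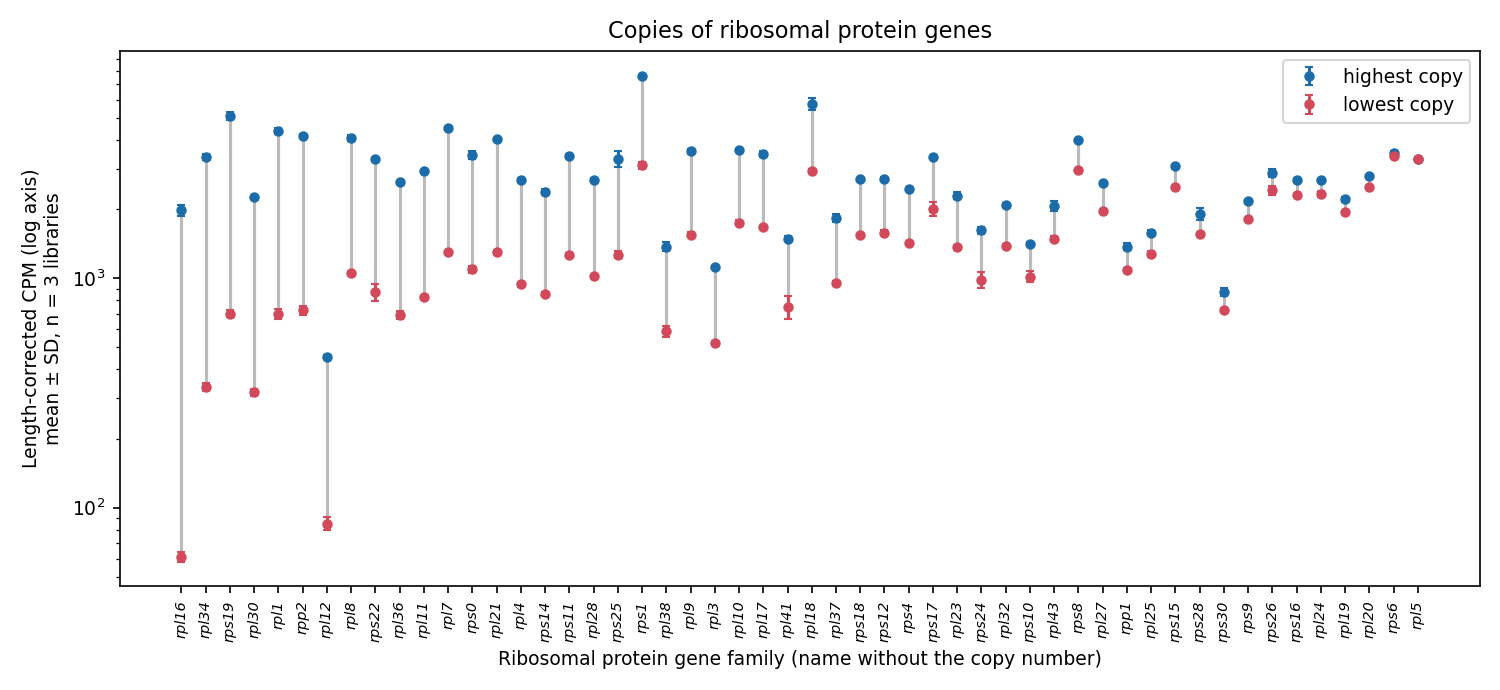
Length-corrected CPM (log axis, mean ± SD of 3 wild-type libraries) of the highest and lowest copy in 52 ribosomal protein gene families, ordered by their ratio. The copies of rpl16 differ by 32.3 times at the left, and those of rpl5 by 1.00 at the right.

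Other duplicated enzymes of growth were split further. Of the enolase genes, eno101 was at 3206 ± 24.5 CPM and eno102 at 5.61 ± 0.422 CPM, a ratio per length of 610. Pyruvate decarboxylase came from pdc101, at 4823 CPM, while pdc102 had 0, 1 and 0 counts, and pdc201 and pdc202 were at 6.98 ± 0.670 and 7.59 ± 0.811 CPM. By contrast, the elongation factor genes eft201 and eft202, which encode the same kind of translocase, were at 255 ± 5.18 and 285 ± 6.93 length-corrected CPM, but over 80% of each was repeated sequence (84.9% and 84.4%), so their split is uncertain.

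Glycolysis and fermentation genes spanned a wide range along the pathway. The hexokinase genes hxk1 and hxk2, for the first step, were at 617 ± 16.8 and 691 ± 15.5 CPM. Phosphoglucose isomerase (pgi1) was at 1910 ± 26.7 CPM and phosphofructokinase (pfk1) at 1239 ± 13.5 CPM. Most genes from aldolase on were higher. Triosephosphate isomerase (tpi1) was at 4135 ± 151 CPM, phosphoglycerate kinase (pgk1) at 3221 ± 106 CPM and glyceraldehyde-3-phosphate dehydrogenase (tdh1), the gene at the class median, at 2448 ± 81.2 CPM, whereas its second gene, gpd3, was at 217 CPM. Per length, the 4 highest were fba1, gpm1, tpi1 and pyk1, with tpi1 at 5636 ± 168 and pyk1 at 3911 ± 42.4 length-corrected CPM, and these 4 levels were separated by more than their SDs. In this class, 13 of 18 measured genes were lowest in replicate 1, against 36.7% of all measured genes, and its share of counts was 4.66%, 4.83% and 4.79% in replicates 1, 2 and 3.

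The translation machinery beyond the ribosome was also high. The 43 translation factor genes were all measured, at a median of 450 length-corrected CPM. The RNA helicase gene tif1 (eIF4A) was the highest by CPM, and the gene at the class median was tif213, the gamma subunit of eIF2, at 564 ± 17.6 CPM. The elongation factor 1 alpha genes tef103, tef101 and tef102 were at 1671 ± 60.1, 1044 ± 4.57 and 501 ± 14.1 CPM. Repeated sequence made up 72.3%, 65.6% and 75.1% of them in that order, so their split is uncertain. The 34 aminoacyl-tRNA ligase genes, which load transfer RNAs with amino acids, had a median of 181 length-corrected CPM, led by the glutamate enzyme gene gus1 at 1007 ± 14.0 CPM. Ribosome biogenesis proteins, which assemble ribosomes but are not part of them, were far lower, with a median of 71.9 length-corrected CPM over 94 genes. Their highest member was SPBC16H5.08c, an ATPase of the Arb family, at 980 ± 90.5 CPM.

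Amino acid synthesis genes were expressed in rich medium, at a median of 373 CPM over 74 genes. The methionine synthesis gene met26 was the highest at 3399 ± 94.2 CPM, followed by shm1 (serine hydroxymethyltransferase) at 2462 ± 44.5 CPM and ilv5 (branched-chain amino acid synthesis) at 2097 ± 36.8 CPM. The gene at the median was ilv1, for acetolactate synthase, at 378 ± 5.07 CPM. Lipid genes were led by plb1 (phospholipase B) at 2347 ± 74.2 CPM and ole1 (acyl-CoA desaturase), which had 2519, 1975 and 2012 CPM in replicates 1, 2 and 3. The gene ole1 was high in replicate 1, with a CV of 14.0%, whereas the sterol genes erg5 and erg25 had CVs of 3.70% and 1.75%.

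At the cell surface, the next genes after SPCC553.10 were but2 at 3153 ± 56.7 CPM, ecm33 (an extracellular leucine-rich repeat protein) at 2842 ± 81.5 CPM and asl1 (a cell wall protein) at 2520 ± 10.7 CPM. The class median was near chr4, a regulator of glucan synthesis, at 173 ± 10.1 CPM. Among transporters, pma1 was followed by mae1, the malate and succinate carrier, at 1337 ± 11.2 CPM and ght8, a hexose carrier, at 1287 ± 7.10 CPM.

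Histone genes are transcribed in S phase, and each histone binds DNA as part of the nucleosome. All 10 were measured, at a median of 1201 length-corrected CPM. The highest was htb1, for histone H2B, with 2107, 2026 and 2299 CPM in replicates 1, 2 and 3, and the gene at the class median was hhf1, for histone H4, at 944 ± 38.4 CPM. Of the 10 genes, 8 were highest in replicate 3, against 44.1% of all measured genes, and 9 were lowest in replicate 2, against 33.4%. Whether the selection for poly(A) tails changed the histone levels was not tested.

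Energy genes of mitochondria were at intermediate levels. The 52 measured genes of respiratory chain and ATP synthase subunits encoded in the nucleus had a median of 303 length-corrected CPM, led by atp2, the beta subunit of ATP synthase, at 2301 ± 35.5 CPM. The gene at the median was qcr8, of the cytochrome c reductase, at 156 ± 9.07 CPM. Mitochondrial ribosomal proteins had a median of 68.8 length-corrected CPM over 69 genes, against 2235 for cytosolic ones, and their highest gene, rsm23, was at 210 ± 10.1 CPM. By CPM the mitochondrial set ran from 14.9 to 210 and the cytosolic set from 36.4 to 5377, so the ranges overlap, while the highest mitochondrial gene was below the 25th percentile of the cytosolic set, at 592 CPM.

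Regulators were at lower levels. Protein kinases and phosphatases had a median of 60.7 length-corrected CPM over 121 measured genes, led by hal4, a kinase of ion balance, at 793 ± 23.0 CPM. Transcription factors and regulators had a median of 39.8 over 160 measured genes, led by zip1 at 684 ± 19.2 CPM. The class of replication, repair and chromosome proteins had a median of 24.5 over 253 measured genes. The gene at its median, rad52 of recombination, was at 42.8 ± 0.293 CPM. This class also held meiotic genes such as mei2, spn5 and spn6, and it lacked the replication genes cdc18 and cdt1. Proteins found only in the genus Schizosaccharomyces were the least often measured protein class, with 221 of 271 genes at a median of 30.8 length-corrected CPM.

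Nutrient genes are given as levels, since 1 growth condition was used. Of the phosphate genes, which fission yeast switches on when phosphate is scarce, the acid phosphatase gene pho1 had 2219, 2284 and 2679 CPM and the phosphate carrier gene pho84 had 1120, 1175 and 1333 CPM in replicates 1, 2 and 3. Another gene of that set, tgp1 (a glycerophosphodiester carrier), had 20.6, 21.5 and 26.8 CPM. These 3 genes were highest in replicate 3 and lowest in replicate 1. Annotated genes on the same strand overlapped 91.3% of pho1 and 89.0% of pho84 in RefSeq. How reads in such overlaps were counted is not stated by any source used here. The thiamine-repressed gene nmt1 had 10, 10 and 7 counts, which left it just outside the measured genes. The other 5 genes of the thiamine list were measured, from bsu1 (a carrier of vitamin B6 forms) at 39.6 ± 1.17 CPM to pho4 (an acid phosphatase) at 232 ± 3.01 CPM, and 4 of them were above the overall median. Gluconeogenesis was low, with fbp1 (fructose bisphosphatase) at 5.57 ± 0.399 CPM, and the invertase gene inv1 was at 9.03 ± 0.578 CPM. The malic enzyme gene mae2, on the same list of genes for low glucose, was at 3209 ± 94.9 CPM.

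Starvation and stress genes were present, many at moderate levels by CPM. All 10 genes of the nitrogen starvation list were measured at a median of 81.2 CPM, from the ammonium carrier gene amt3 at 3.69 ± 0.880 CPM to amt2 at 201 ± 9.82 CPM. Per length their median was 33.5, against 38.9 over all measured genes. The mating regulator gene ste11 was at 68.6 ± 6.69 CPM. The 14 stress and stationary phase genes had a median of 184 CPM, where gpd1 (glycerol synthesis) was at 1074 ± 79.5 CPM and the catalase gene ctt1 at 312 ± 22.1 CPM, and the lowest, atf21, was at 1.62 ± 0.428 CPM.

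Genes of both mating types were detected. Of the list for M cells (the h- mating type), 7 of 11 genes were measured: the M-factor gene mfm2 was at 140 ± 7.61 CPM, the pheromone exporter gene mam1 at 107 ± 4.63 CPM and mam3 at 106 ± 0.857 CPM, while mfm3 was at 1.42 ± 0.0292 CPM. All 4 genes of the P-cell list that the table holds were measured, from map1 at 8.85 ± 1.97 CPM to map4 at 79.0 ± 2.03 CPM. The 4 mating-type genes mat1-Mc, mat1-Mi, mat3-Mc and mat3-Mm had 0 to 2 counts in each library, and these genes are present in several copies in the genome. No mating type was read from these values.

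The libraries agreed closely for most genes. Between replicates 2 and 3, 86.7% of the measured genes were within 1.2-fold, against 85.7% between replicates 1 and 2 and 76.0% between replicates 1 and 3. The SD of the log2 CPM ratio was 0.20 for replicates 2 and 3, 0.28 for 1 and 2 and 0.31 for 1 and 3. Over the 5094 genes with at least 100 counts in each library it was 0.13, 0.15 and 0.20 for these pairs in the same order. A difference above 2-fold was seen in 21, 82 and 73 genes for these pairs in the same order. Across the 5957 measured genes, Pearson's r of log2 CPM was between 0.992 and 0.997, as a description over genes that share library and depth. No 2 libraries were duplicates, since chi-square per degree of freedom ran from 5.63 to 11.6, where counting error alone gives values near 1.

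The median CV over the measured genes was 5.98%, with quartiles of 3.13% and 11.1%. The counting error alone had a median of 3.12%. At 10 to 30 mean counts the median CV was 22.0%, equal to the median counting error in that bin. It was 7.83% at 300 to 1000 counts and 2.59% at 10000 or more, where the counting error was 0.742%. The spread beyond counting error had a median of 4.15% over all measured genes. In all, 2585 genes (43.4%) had a CV below 5%, and 435 (7.30%) had a CV above 20%.

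**Figure D4:**
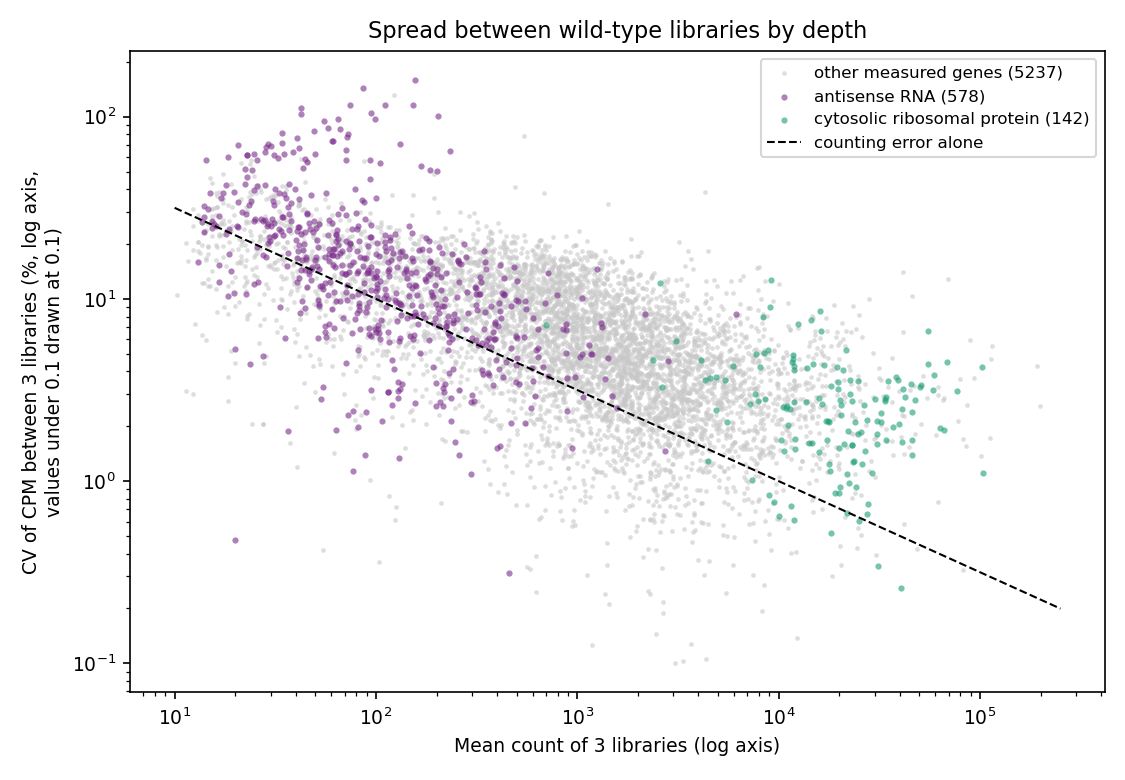
CV of CPM between the 3 wild-type libraries (%, log axis) against the mean count (log axis), 1 point per measured gene, with ribosomal protein genes and antisense RNAs in colour and the counting error as a dashed line. Ribosomal protein genes lie at high counts with a median CV of 2.60%, and antisense RNAs at low counts with a median of 13.1%, some far above the line.

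By class, the CV was small for abundant housekeeping genes, which also have the highest counts. Ribosomal protein genes had a median CV of 2.60% and glycolysis and fermentation genes of 2.65%, and 128 of 142 ribosomal protein genes were below 5%. The median CV of ribosomal protein genes was 1.59% without replicate 1, 2.37% without replicate 2 and 2.37% without replicate 3. At matched counts these genes were not tighter throughout: their median CV was 3.65%, against 3.15% for all measured genes, at 3000 to 10000 counts, and 2.23%, against 2.59%, at 10000 or more. Translation factors had a median CV of 2.82% and sterol and lipid enzymes of 3.25%. Among protein classes with at least 50 measured genes, splicing factors had a high median CV at 10.6%, followed by replication, repair and chromosome proteins at 7.87%, Schizosaccharomyces-specific proteins at 7.83% and RNA processing proteins at 7.07%. Antisense RNAs had 13.1% and small nuclear or nucleolar RNAs 16.5%, but their counting errors were also large, with medians near 10% and at 21.5%. The median CV of antisense RNAs was 8.57% without replicate 1, 10.9% without replicate 2 and 11.4% without replicate 3. Values with a library left out rest on fewer libraries and are not directly comparable with those from all of them.

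Splicing factors differed between the libraries in one direction. Of the 60 genes, 45 were highest in replicate 3, against 44.1% of all measured genes, and 41 were lowest in replicate 1, against 36.7%. The median log2 ratio of replicate 3 over the mean of the other 2 was 0.19 for splicing factors and 0.02 for all measured genes, and that of replicate 1 was -0.19, against 0.00. The gene at the class median, cwf28, had 33.7, 40.3 and 45.9 CPM in replicates 1, 2 and 3. The highest gene of the class, srp2, had 599, 622 and 650 CPM and showed the same order. The U5 snRNP gene brr2 had 191, 163 and 161 CPM and was highest in replicate 1. Ribosome biogenesis genes showed the same order to a smaller degree, with 63 of 94 highest in replicate 3 and a median log2 ratio of 0.12, and replication, repair and chromosome genes had 150 of 253 highest in replicate 3 with a median log2 ratio of 0.10.

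Transcript length and abundance moved with the same difference. Across 5086 genes with at least 100 counts in each library and a known length, the log2 ratio of replicate 3 over the others had a Spearman correlation of -0.22 with transcript length, and that of replicate 1 of 0.22. With mean CPM, the correlations of these ratios were -0.35 and 0.23 over 5094 genes. These are descriptions across genes of the same libraries, and the part of length or abundance in the class differences was not tested.

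Several heat shock genes were low in replicate 3. The small heat shock gene hsp16 had 77.3, 81.1 and 56.6 CPM in replicates 1, 2 and 3, hsp104 (a disaggregase) had 67.7, 60.3 and 47.8 CPM, and ssa1 (Hsp70) had 112, 114 and 82.3 CPM. Each was lowest in replicate 3, as was ssa2, with 6154, 6136 and 5579 CPM. Of the 56 genes in the chaperone class, 20 (35.7%) were lowest in replicate 3, against 29.9% of all measured genes. In the same class 27 (48.2%) were highest in replicate 3, against 44.1%. The class holds the kinase gene ssp1 and lacks the mitochondrial chaperone gene ssc1.

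The zinc carrier gene zrt1 was high in replicate 3. It had 3254, 3389 and 6245 counts in replicates 1, 2 and 3, a CV of 38.7% against a counting error of 1.53%, and 9.70% of its length overlapped a gene on the other strand. Another zinc gene, zhf1, a transporter of the same metal, had 610, 623 and 594 CPM, with no library apart. The metallothionein gene zym1 had 20.4, 15.5 and 15.4 CPM.

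Antisense RNAs stood out in replicate 1. By the rule that 1 library holds over 3 times the mean of the other 2 at a mean of at least 50 counts, 24 genes were found, of which 23 were high in replicate 1, 1 in replicate 2 and 0 in replicate 3. Of the 23, 22 were annotated as antisense RNAs. The RNA opposite the chaperonin gene mcp60, mcp60-antisense-1, had 325, 3 and 9 counts in replicates 1, 2 and 3. The RNA opposite cpc2, which encodes a ribosomal RACK1 protein at 3430 CPM, had 151, 1 and 4 counts. Those opposite rps1601 and rpl1801 had 319, 9 and 20 counts and 190, 5 and 17 counts. The genes they face are among the abundant ones, with mcp60 at 1906 CPM and rps1601 at 1336 CPM. The single protein gene of the 23, spc24 of the kinetochore, had 1002, 279 and 343 counts, and 86.5% of its transcript overlapped genes on the other strand, the highest being the translation factor gene tif512 at 1723 CPM.

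The excess in replicate 1 grew with the level of the gene on the other strand. Of 694 antisense RNA genes, 678 overlapped a gene of the table on the opposite strand in RefSeq. For the 22 that faced a gene above 1000 CPM, the summed level was 356 CPM in replicate 1, 154 CPM in replicate 2 and 158 CPM in replicate 3, and 20 of the 22 were highest in replicate 1. These sums were 1.12%, 0.473% and 0.491% of the summed CPM of the genes they face. For the 107 that faced a gene below 10 CPM, the sums were 1780, 1787 and 1831 CPM. Of these 107, 36 were highest in replicate 1, against 38.7% of all measured genes and 52.2% of all measured antisense RNAs. Between these ends, replicate 1 over the mean of the other 2 was 1.06 for partners of 30 to 100 CPM, 1.18 for 100 to 300 CPM and 1.34 for 300 to 1000 CPM. In these 3 bins replicates 2 and 3 were closer to each other than either was to replicate 1. The part of reads from the opposite gene in these counts was not tested, and no source used here states the strand setting of the authors' counting.

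**Figure D5:**
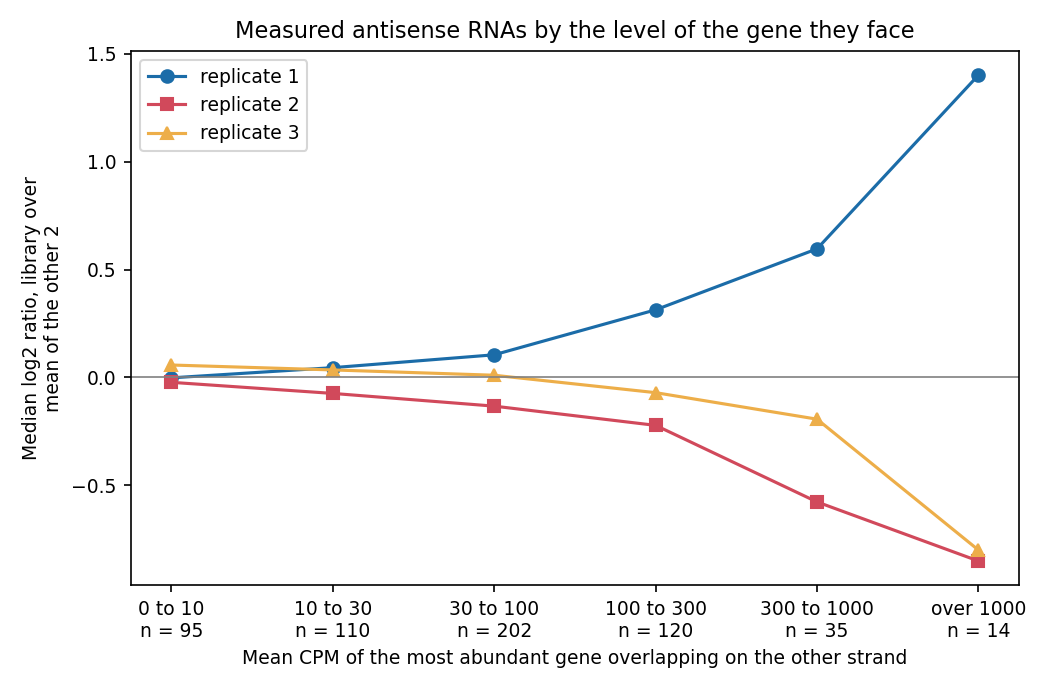
Median log2 ratio of each wild-type library over the mean of the other 2, for measured antisense RNAs grouped by the mean CPM of the most abundant gene they overlap on the other strand (n per group on the axis). In replicate 1 the median is 0.00 where the partner is below 10 CPM and 1.40 where it is above 1000 CPM.

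Protein genes showed less of this. For 39 measured protein-coding genes that overlap an opposite gene above 1000 CPM, the median log2 ratio of replicate 1 over the others was 0.04. Their own median level was 58.3 CPM, against 8.09 CPM for the 14 measured antisense RNAs of that bin. Of the 39, 21 were highest in replicate 1, against 37.9% of all measured protein-coding genes. With opposite genes of 300 to 1000 CPM it was 72 of 148, and with those of 100 to 300 CPM 176 of 516. Some low protein genes in overlaps were nevertheless among the 10 most variable genes with at least 100 counts in each library, such as tri1 (a ribonuclease), with 290, 142 and 149 counts and 91.4% overlap, and rmi1 (a genome stability factor), with 693, 378 and 396 counts and 100% overlap. Both were high in replicate 1. The antisense members of that set were SPBC3B8.03-antisense-1 with 394, 162 and 143 counts, srm1-antisense-1 with 261, 121 and 120, SPNCRNA.1021 with 282, 148 and 125, and ubc4-antisense-1 with 304, 139 and 158. The mitochondrial 21S_rRNA was high in replicate 2, with 523, 1014 and 505 counts, as was the signal recognition particle RNA srp7, with 36, 315 and 19 counts. The gene SPAPJ695.02 was high in replicate 3, with 110, 128 and 218 counts.

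Most measured antisense RNAs were well below the gene they face. Their median level was 10.8% of the CPM of that gene over 576 pairs, and 193 were below 5% of it. Where several genes overlapped, the most abundant was taken, which lowers the percentage. These CPM values are not corrected for length. In 88 pairs the antisense RNA was the higher one. The RNA opposite spo4, which encodes a kinase needed in meiosis, was at 146 ± 6.64 CPM, while spo4 itself had 21, 0 and 1 counts in replicates 1, 2 and 3. The RNA opposite hop1, for a protein of the meiotic chromosome axis, was at 60.8 ± 3.02 CPM and hop1 at 1.11 CPM. The counts of these 2 RNAs were close in the 3 libraries, at 2801, 2833 and 2805 for spo4-antisense-1 and 1173, 1185 and 1151 for hop1-antisense-1. These examples were chosen after their values were seen, and no test was made of the kinds of gene that antisense RNAs exceed.

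The most even genes had spreads below counting error. The 10 lowest CVs among genes with at least 100 counts in each library ran from 0.0439% to 0.212%. They belonged to sec16 (a vesicle coat factor), pom1 (the polarity kinase), bdf1, rit1, igo1, tif38, nrm1, erg32, sdh3 and gyp7. For sec16 the counts were 2908, 3212 and 3084, or 159 CPM in each library, while counting error for it is 1.81%. Such values do not rank these genes among themselves.

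At the lower limit, 26 genes had a lowest count of exactly 10 and 20 genes of 9. Just inside were the ribosomal RNA gene SPRRNA.47 with 11, 10 and 10 counts, the melibiase gene mel1 with 10, 10 and 14 counts and the intergenic RNA SPNCRNA.1339 with 12, 10 and 13 counts. Just outside were SPNCRNA.845 with 16, 9 and 42 counts, SPBC1198.05-antisense-1 with 52, 10 and 9 counts and rps1601-antisense-1. The last of these had 319 counts in replicate 1, so the minimum in every library also left out RNAs that were high in 1 library.

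Of the genes not measured, 474 had 0 counts in all 3 libraries and 555 had counts in at least one. Of 232 genes with at least 90% repeated 50-base windows, 21 (9.05%) were measured, against 90.7% of 6432 genes with less than 10%. Among protein-coding genes, 4902 of 5060 (96.9%) were measured, and 42 had 0 counts in all libraries. Of these 42, 17 had less than 10% repeated sequence. They were ura4, tco1, sfc7, coa3, mzt1, ina17, new9, new15, ost5 and 8 genes without a name, and except for ura4, tco1, SPAC186.08c and SPAC959.11 their transcripts were no longer than 570 bases. The gene mzt1, for a spindle organizing protein, and ost5, for a subunit of the enzyme that attaches sugars to proteins, were 259 and 285 bases long. Whether these genes were in the annotation used for counting in the same form was not tested.

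Length, which enters the length-corrected ranking itself, and GC content, which does not, differed with abundance. In the 500 highest protein-coding genes by length-corrected CPM the median transcript was 1122 bases and 40.7% GC, against 1772 bases and 36.3% GC in the lowest 402. Across 4902 protein-coding genes, length-corrected CPM had a Spearman correlation of 0.36 with GC content and of -0.23 with transcript length, while CPM itself had 0.44 and 0.19, so the sign for length depends on the scale. The share of genes with an intron was similar along the ranking, at 45.8% in the highest 500 and 45.5% in the lowest 402. Of ribosomal protein genes 47.2% had no intron, and of glycolysis and fermentation genes 88.9%.

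Known promoter motifs were set beside the classes. Windows from 250 bases before to 50 bases after the annotated start were searched on both strands in RefSeq. The HomolD box (CAGTCACA), the core element of ribosomal protein promoters in fission yeast, was in 90 of 142 ribosomal protein genes (63.4%), against 1.65% of 12605 annotated promoters. Of 5112 promoters of protein-coding genes, 2.68% held the box. In the ribosomal protein genes its median position was -51 relative to the start, with quartiles of -57 and -47. The 90 genes with the box had a median of 2337 length-corrected CPM and the 52 without it had 2139. A second element, HomolE, was in 41 of the 142 (28.9%), against 0.698% of annotated promoters and 1.25% of those of protein-coding genes. The measured protein-coding genes numbered 4902, and 47 of them outside the ribosomal protein class had HomolD. Of these 47, 22 were among the 500 highest genes per length. They included tpi1, tma19, cpc2, tif1 and sks2, and the 47 had a median of 313 length-corrected CPM, against 52.9 for all measured protein-coding genes.

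The histone box (AACCCT), bound in histone promoters of fission yeast, was in 9 of 10 histone genes, against 9.20% of annotated promoters. It was also in 45 of 142 ribosomal protein genes, where it shares letters with HomolE. The MluI box (ACGCGT), the element of the factor that drives G1/S transcription, was in 21 of 253 replication, repair and chromosome genes (8.30%), against 2.46% of annotated promoters. It was not particular to that class, with 3 of 35 proteasome genes (8.57%) and 2 of 10 histone genes. The TATA element (TATAAA) was in 25 of 35 proteasome genes (71.4%) and in 39 of 142 ribosomal protein genes (27.5%), against 45.3% of annotated promoters. Of the promoters of protein-coding genes alone, 9.70% held the histone box, 3.25% the MluI box and 48.1% the TATA element. A match describes the letters in the window and not binding, and no promoter is printed because the reference differs from the build in the submitters' notes.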

How the data were processed

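Polyadenylated RNA of 3 wild-type libraries was used. The deposited values were whole-number counts of reads per gene made by the authors, and a second table gave gene names, products and the authors' mean normalized signal for the wild type, per the file headers. That mean was 1.03 times the mean of counts divided by size factors computed here, for the median of 5956 genes (lowest 1.03, highest 1.04), and was not used further. Tools listed in the submitters' processing notes, with no role given, were HTSeq 0.10.0, HISAT2 2.1.0, SAMtools, DESeq and DESeq2, with ASM294v2 as genome build. No source used here states how strand and reads with several matches were handled. An identifier on 2 of the 6987 lines was summed, which gave 6986 genes. A count of 0 allows up to 3 counts, for counting error only. Library totals were 18244492 to 20166818, so 10 counts were 0.496 to 0.548 CPM.

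CPM, shares, CVs and ranks were computed in Python 3.11.15 (pandas 2.3.3, scipy 1.17.1). Genes needed at least 10 counts in all 3 libraries. Spread beyond counting error is the square root of the squared CV less the Poisson part, set to 0 where negative. With 3 libraries its median understates the true value: on counts simulated with a CV of 10% (1986 genes), its median was 7.96% and its root mean square 10.1%. TMM factors and dispersions came from edgeR 4.0.16, size factors from DESeq2 1.42.0. Transcript length, GC, introns, strand overlap and repeated 50-base windows came from the RefSeq annotation of ASM294v3, with 6846 genes (98.0%) matched by identifier. Its build differs from the notes, and no coordinates are printed.

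No test between groups was made. The 37 classes and all lists were chosen with earlier results of these data known. Named genes were the top 20 by CPM and by length-corrected CPM, the highest and median gene of each class, members of fixed lists, the 10 highest and lowest CVs, genes at the count minimum, the most and least unequal copies, and genes high in 1 library. Further members, such as the next highest genes of a class and the antisense examples, were chosen after their values were seen. Alternatives were other scalings, other count minimums, length correction, parts of the gene set and each library left out.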

Additional observations from a re-analysis of the deposited data

How the results depend on the processing

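No paired analysis was possible because the results come from 1 group and from no test. The number of measured genes ran from 5431 to 6335 with minimums of 50 to 1 counts, and from 5980 to 5993 with 1 library left out. The genes that held 50% of counts numbered 347 to 353 with 1 library left out and 194 by length-corrected CPM. On that scale the shares were 34.3% for ribosomal proteins, 4.48% for glycolysis and fermentation and 0.451% for antisense RNAs. With 1 library left out, the median CV ran from 4.21% to 5.95% for all measured genes, from 8.57% to 11.4% for antisense RNAs, from 1.59% to 2.37% for ribosomal proteins and from 12.2% to 16.8% for small nuclear or nucleolar RNAs. The lowest was without replicate 1 for the first 3 sets, and for antisense RNAs and ribosomal proteins this was over 1.5 times below the value with all libraries. Part of such a fall can come from the smaller number of libraries, since a CV of 2 libraries is not directly comparable with a CV of 3. With no count minimum the median CV was 15.2% for antisense RNAs and 25.5% for small nuclear or nucleolar RNAs, and with at least 50 counts 9.29% and 10.2%. For ribosomal proteins it was 3.10% with TMM factors and 3.27% with upper-quartile scaling, so the CVs near 3% are not resolved from one another. The spread beyond counting error with TMM factors was 2.98% for ribosomal proteins and 3.23% for small nuclear or nucleolar RNAs, and edgeR's biological CV, which borrows between genes, was 7.11% for all measured genes, 15.6% for antisense RNAs, 3.86% for ribosomal proteins and 18.0% for small nuclear or nucleolar RNAs. The cause of these differences was not tested. The pairwise SD of log2 ratios cannot change with a library-wide scaling, so other scalings are no check of it. Over 5094 genes with at least 100 counts, a limit chosen after seeing the data, it was 0.15 for replicates 1 and 2, 0.20 for 1 and 3 and 0.13 for 2 and 3.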
